A study of Mus musculus with 10 samples.

Results

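Histone chaperones for deposition, the proteins that hand new or recycled histones to DNA, were read out in RNA-seq of mouse embryonic stem cells. The 10 genes were picked by name and not by a cut on a measured value, though earlier results of these data were known. They are Atrx, Daxx, Hira, Ubn1, Cabin1, Asf1a, Asf1b, Chaf1a, Chaf1b and Nasp. Each symbol matched 1 Ensembl gene, giving 10 of 55487 genes in the tables. The series holds 10 samples of the E14 line in 6 groups, and its main subject is the mapping of R-loops, structures in which RNA pairs with one DNA strand. The values below come from 1 group, the 3 RNA-seq replicates. The other 7 samples, from the R-loop mapping experiments and titled MapR or BisMapR, are not used here. The labels give these E14 cells no genetic change and no treatment of their own. They were grown in medium with 15% serum, LIF, a GSK inhibitor at 3 µM and a MEK1/2 inhibitor at 1 µM. E14 is a single cell line kept in culture, and with 1 group no difference between conditions could be tested. Nothing in the labels says whether the 3 replicates were separate cultures, so their spread may be technical.

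Histones reach DNA through a relay of escort proteins. NASP holds soluble H3 and H4, and ASF1 takes an H3-H4 pair and passes it to a depositing complex. CAF-1, whose large subunits are encoded by Chaf1a and Chaf1b, places the replication-dependent histones H3.1 and H3.2 behind the replication fork. The variant H3.3 is deposited outside replication, by the HIRA complex (HIRA, UBN1 and CABIN1) in active and regulatory chromatin and by DAXX with the remodeller ATRX at telomeres and silenced repeats. In embryonic stem cells CAF-1 is known as a barrier to the return to an earlier, totipotent-like state, and ATRX with DAXX is known for silencing retroelements.

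Libraries held 5787357 to 11420425 estimated counts. Of 8 pluripotency markers, all 8 had a mean of at least 1 TPM, a level scaled by gene length and then to the library total. Their summed level was 689 to 1060 TPM, with Pou5f1 at 149 ± 21.7 TPM and Nanog at 183 ± 29.9 TPM (SD, n = 3). None of 8 lineage markers reached a mean of 1 TPM, at summed levels of 1.66 to 2.88 TPM. Eomes came close at 0.953 ± 0.106 TPM, with 1.05 TPM in replicate 2, and Sox1 had 0.733 ± 0.235 TPM (SD, n = 3). Of 8 fibroblast markers, which would report feeder cells, only Thy1 reached that mean, at 2.5 ± 1.15 TPM (SD, n = 3), and 4 had 0 counts in every library. Genes of effective length under 100 nt held 60.3%, 65.8% and 63.9% of all TPM in replicates 1, 2 and 3. The TPM of every longer gene is lower for it, so 1 TPM is a strict limit here. A floor of 3 counts corresponds to 0.263 to 0.518 CPM, counts scaled to library size without regard to length, and it covers counting error only. Replicate 3 stood apart from the others. Across 12567 genes, Spearman's rho of a replicate's deviation with transcript length was 0.375, 0.166 and -0.384 in replicates 1, 2 and 3, where genes are not independent and the deviations of a gene sum to 0.

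All 10 chaperone genes were detected, each with a mean of at least 1 TPM, a level that 44.1% of 21974 protein-coding genes reached. The fewest counts behind any value were 129, those of Asf1a in replicate 2, with an exact Poisson 95% interval of 108 to 153. Nasp was the most abundant per length at 55.0 ± 5.6 TPM (SD, n = 3), above 95.4% of expressed protein-coding genes. Ubn1 was the least abundant at 2.89 ± 0.77 TPM (SD, n = 3), above 26.9% of them. The median log2(TPM + 1) of the 10 genes was 3.41 ± 0.25 (SD, n = 3), and that of the 9683 expressed protein-coding genes was 2.72 ± 0.29 (SD, n = 3). In bulk RNA, fewer cells expressing a gene and less RNA per cell cannot be told apart.

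**Figure D1:**
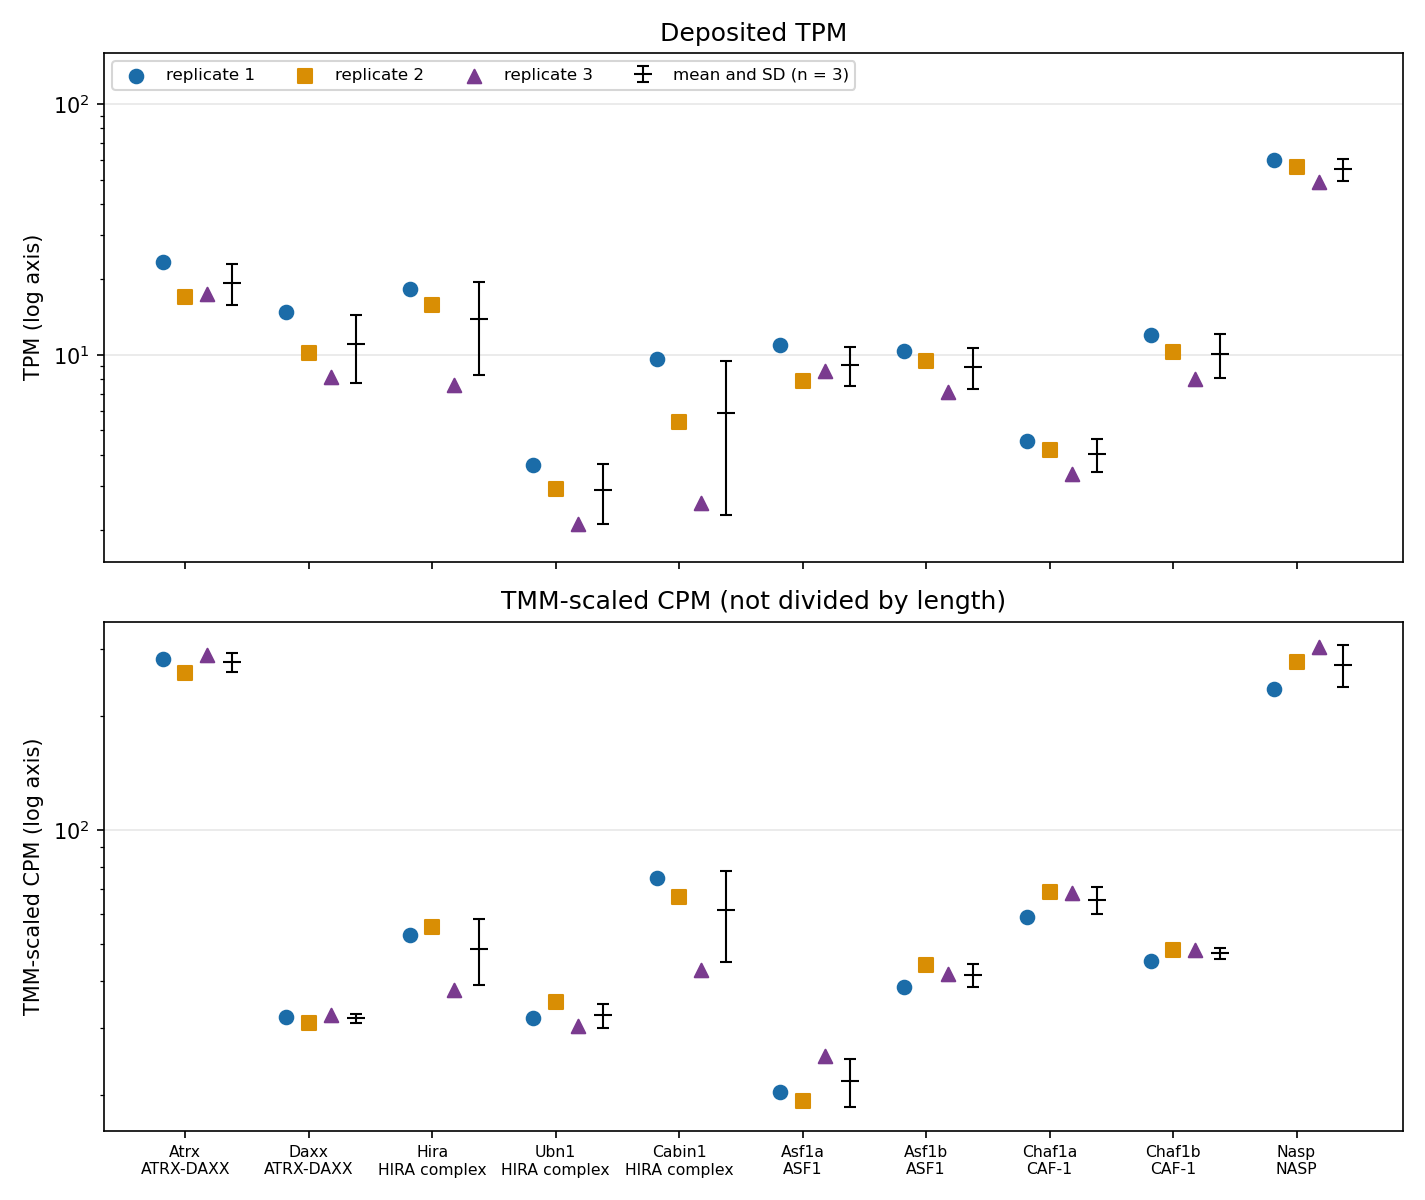
Levels of the 10 chaperone genes in each of 3 RNA-seq replicates, as deposited TPM (upper panel, log axis) and as TMM-scaled CPM, which is not divided by length (lower panel, log axis), with the mean and SD beside them. Every gene is highest in replicate 1 by TPM, while on the CPM scale Hira and Cabin1 stand out as low in replicate 3.

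The unit decided how the replicates compared. By TPM, all 10 genes were highest in replicate 1, but so were 86.3% of the expressed protein-coding genes, and 8 of the 10 were lowest in replicate 3, against 79.4% of those genes. The median log2(TPM + 1) of expressed protein-coding genes lay 0.26 above the genes' own means in replicate 1, 0.01 below them (-0.01) in replicate 2 and 0.24 below them (-0.24) in replicate 3. The members' TPM therefore moved between libraries with that of most genes. CPM scaled by TMM, a factor that sets most genes equal between libraries, took this shift out. On that scale 1 of the 10 was highest in replicate 1 (33.6% of 12577 tested genes) while in replicate 3 there were 5 at their highest (40.6%) and 3 at their lowest (40.4%).

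Daxx shows the contrast. Its TPM was 14.79, 10.23 and 8.16 in replicates 1, 2 and 3, while its TMM-scaled CPM was 32.1, 30.9 and 32.4. By TPM the highest value stood well above the other two. By CPM the 3 values had a coefficient of variation, the SD over the mean, of 2.55%, against 30.7% by TPM. The gene length deposited with Daxx also rose, at 1096.98, 1208.03 and 1250.39 nt, and only TPM is divided by length. Nasp went the other way, with 10.2% by TPM and 12.7% by CPM. Over the 10 genes the median coefficient of variation was 19.3% by TPM and 7.89% by TMM-scaled CPM. Over the 6060 tested genes with a mean CPM in the members' range it was 23.5% and 9.98%.

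Variation between replicates was compared with that of genes of like abundance by the goodness-of-fit test of edgeR. With Benjamini-Hochberg adjustment, 0 of the 10 genes passed at 0.05. Over all 12577 genes tested, 1.84% were called. At an unadjusted p under 0.05 the count was 1 of 10, Cabin1, and 6.96% of all genes. Over 9 alternative settings the adjusted count was 0 in each. The unadjusted count was 1 in 4 of them, DESeq2 size factors included, and 0 in the other 5: with a common dispersion, with either correction for length, without replicate 1 and without replicate 3.

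Atrx encodes a SWI/SNF-like remodeller, and Daxx the H3.3 chaperone that it partners. Atrx (ENSMUSG00000031229) lies on chromosome X, 105797615 to 105929403 on GRCm38, and Daxx (ENSMUSG00000002307) on chromosome 17, 33909414 to 33915590. Atrx had 23.53, 17.08 and 17.47 TPM in replicates 1, 2 and 3, from 3380, 1732 and 1542 counts. Atrx was above Daxx in each library, and the lowest Atrx value exceeded the highest Daxx value. The log2 ratio of Atrx to Daxx was 0.67, 0.74 and 1.1, a mean of 0.84 ± 0.23 (SD, n = 3) or 1.78-fold. With 3 libraries an exact sign-flip test of such a ratio cannot go below a two-sided p of 0.25, so each ratio here is set against its spread. Before division by length Atrx counts were far larger, with TMM-scaled CPM of 282, 260 and 289, and neither gene varied beyond the trend (edgeR adjusted p of 1 for both).

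The HIRA complex joins the WD-repeat chaperone HIRA, the DNA-binding and H3.3-contacting subunit UBN1 and the large scaffold CABIN1. Hira (ENSMUSG00000022702) lies on chromosome 16, 18877037 to 18970309, Ubn1 (ENSMUSG00000039473) on chromosome 16, 5050057 to 5086289, and Cabin1 (ENSMUSG00000020196) on chromosome 10, 75646112 to 75764341. The complex was uneven per length. Hira had 18.25, 15.83 and 7.6 TPM in replicates 1, 2 and 3, with replicate 3 well below the others. Ubn1 had 3.65, 2.92 and 2.11 TPM, below every Hira value. Cabin1 had 9.66, 5.41 and 2.56 TPM, the widest spread of the 10 genes, with a coefficient of variation of 60.8%.

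The log2 ratio of Ubn1 to Hira was -2.32, -2.44 and -1.85, a mean of -2.2 ± 0.31 (SD, n = 3), which puts Hira 4.6-fold higher. That of Cabin1 to Hira was -0.92, -1.55 and -1.57, a mean of -1.35 ± 0.37 (SD, n = 3), with Hira 2.54-fold higher. Both ratios had the same sign in 3 of 3 libraries. Ubn2, a paralogue of Ubn1 that can take its place in the complex, had 6.42 ± 2.83 TPM (SD, n = 3).

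Hira cannot be read alone. Its estimated counts, 634.4, 369.48 and 201.24, were not whole in any library, while those of the other 9 genes were whole in all 3 (within 0.005), and fractional counts arise where reads are divided among genes. Gm28539 (ENSMUSG00000099908), a gene on the same strand of chromosome 16 from 18836584 to 18956247, has a single transcript of 24 exons, 21 of them identical to exons of the full-length Hira transcript. It starts within 2510002D24Rik, upstream of Hira. Of the distinct 50-base words in Hira transcripts, 42% also occur in Gm28539. The junctions below are shown because only they, and other sequence outside the shared exons, can tell the transcripts apart. Lower case marks the last 30 coding bases of the exon before the junction and capitals the 63 bases of the shared exon, chr16:18894774-18894836 (GRCm38, plus strand); the lower-case parts end at 18877519 in Hira and at 18836873 in Gm28539.
Hira: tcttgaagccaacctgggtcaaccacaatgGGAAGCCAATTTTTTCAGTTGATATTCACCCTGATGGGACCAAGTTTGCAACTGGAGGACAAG
Gm28539: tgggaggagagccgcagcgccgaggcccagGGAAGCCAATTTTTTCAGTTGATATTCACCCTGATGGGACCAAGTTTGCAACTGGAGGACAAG

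Gm28539 was assigned 185.46, 54.13 and 78.22 counts in replicates 1, 2 and 3, and 2510002D24Rik 97.15, 43.4 and 30.54. Summed over the 3 genes the counts came to 917.01, 467.01 and 310, whole within 0.02 in every library. Gm28539 took 22.6%, 12.8% and 28% of the Hira plus Gm28539 counts, so the division itself differed between libraries. The summed TMM-scaled CPM of Hira and Gm28539 was 68.3, 63.4 and 52.3, a smaller gap between replicate 3 and the others than for Hira alone at 52.8, 55.3 and 37.7. With Gm28539 added to Hira, the mean log2 ratios became -2.38 for Ubn1 and -1.52 for Cabin1.

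Cabin1 had the lowest goodness-of-fit p of the 10 genes. Its TMM-scaled CPM was 74.7, 66.4 and 42.7 in replicates 1, 2 and 3, with replicate 3 lowest. The edgeR goodness-of-fit p was 0.0394 unadjusted and 0.632 adjusted over all genes, so it did not pass. Its adjusted p ran from 0.632 to 1 over the alternatives, and it was 0.999, 0.853 and 0.999 without replicate 1, 2 and 3. The lowest p was not always that of Cabin1: with a correction for deposited length Hira had 0.0623 and Cabin1 0.0785 unadjusted, and without replicate 3 Nasp had 0.18 and Cabin1 0.371 (edgeR). Replicate 3 was also the library in which long genes were low. Cabin1, whose longest transcript is 7417 nt, deviated by -0.48 (log2) in replicate 3, while the median of 1383 genes within 1.25-fold of that length was -0.11. With a correction for the longest transcript, the unadjusted edgeR p of Cabin1 was 0.114.

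The other long members had smaller deviations in that library. Atrx, with the longest transcript at 10275 nt, deviated by 0.06 in replicate 3, where genes of like length had a median of -0.16. Chaf1a, at 7698 nt, deviated by 0.07, where genes of like length had a median of -0.12. Hira, at 4218 nt, deviated by -0.34, where genes of like length had a median of -0.03. Ubn1, at 6455 nt, deviated by -0.09 and its length group by -0.1. The part of RNA quality or library preparation in the low Cabin1 and Hira values was not tested.

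**Figure D2:**
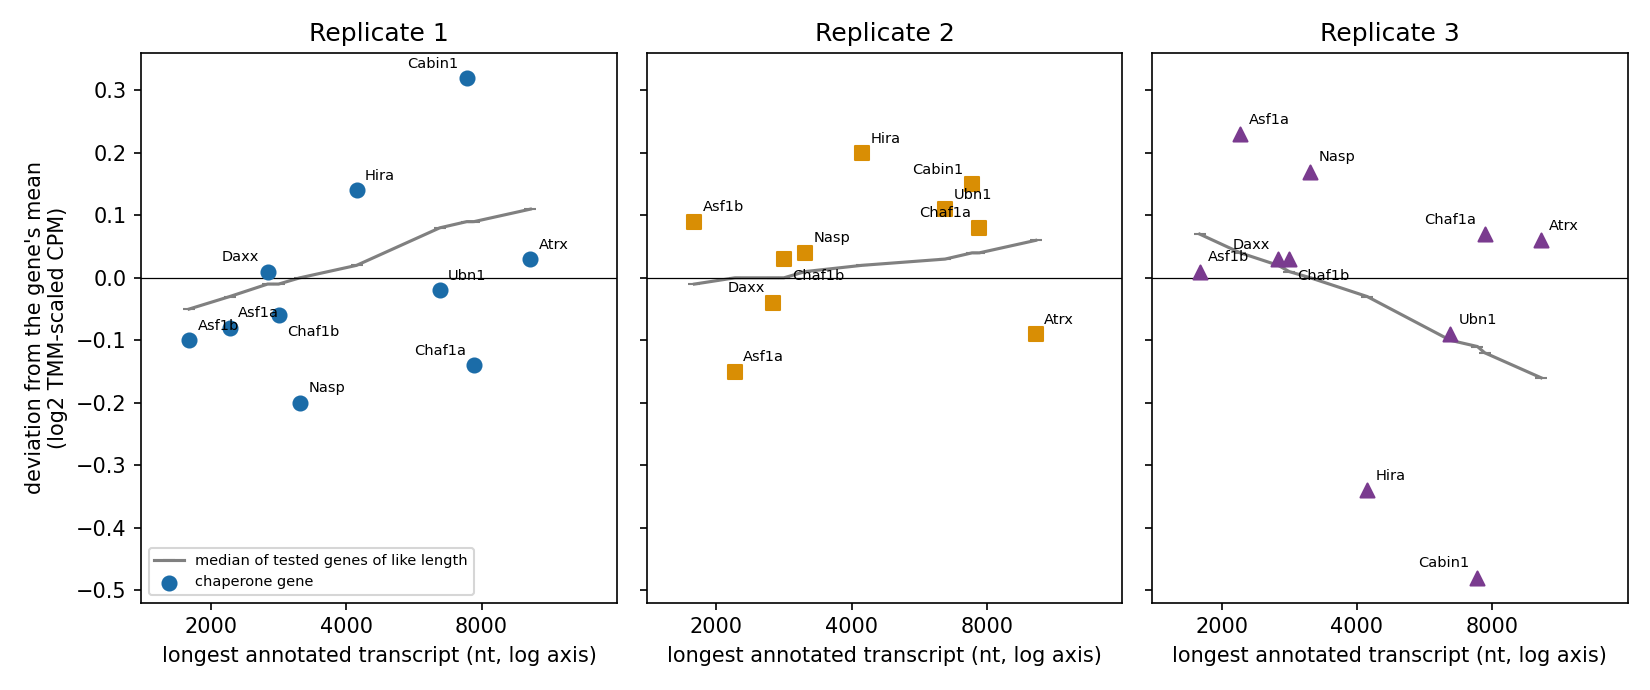
Deviation of each chaperone gene from its own mean over the 3 libraries (log2 TMM-scaled CPM), 1 panel a replicate, against its longest annotated transcript (nt, log axis); the grey line joins the medians of tested genes within 1.25-fold of each length. In replicate 3, Cabin1 at -0.48 and Hira at -0.34 lie under the line, and Atrx at 0.06 and Chaf1a at 0.07 lie over it.

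Asf1a and Asf1b encode paralogous escorts that bind H3-H4. ASF1A is known to work with HIRA, and ASF1B is known as the form linked to proliferation. Asf1a (ENSMUSG00000019857) lies on chromosome 10, 53596757 to 53609225, and Asf1b (ENSMUSG00000005470) on chromosome 8, 83955507 to 83970197. Their coding sequences, of 615 and 609 bases, were identical at 71.9% of 606 aligned bases with a longest identical run of 20 bases. They shared no 50-base word, so reads of that length separate them. The stretch below, bases 49 to 138 of both coding sequences counted from the start codon, is the in-frame 90-base window of highest identity before the first gap of the alignment, and it is shown because even there 14 bases, in capitals, tell the paralogues apart.
Asf1a: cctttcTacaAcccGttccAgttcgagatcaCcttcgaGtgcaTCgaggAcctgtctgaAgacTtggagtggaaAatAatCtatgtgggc
Asf1b: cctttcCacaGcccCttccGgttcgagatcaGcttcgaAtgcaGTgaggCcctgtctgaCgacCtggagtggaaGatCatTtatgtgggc

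Per length the paralogues could not be ordered. Asf1a had 11, 7.86 and 8.6 TPM in replicates 1, 2 and 3, and Asf1b had 10.34, 9.5 and 7.14 TPM. The ranges overlapped, and Asf1b was the higher in 1 of 3 libraries. The log2 ratio of Asf1b to Asf1a was -0.03 ± 0.28 (SD, n = 3), well inside its spread. Asf1a lies within the span of Mcm9, a helicase gene on the opposite strand, and 43.1% of its 50-base words occur in Mcm9 transcripts in antisense. Mcm9 had 314, 177 and 95 counts, where Asf1a had 244, 129 and 135. The libraries were directional, and the strand setting of the counting is not given in the sources used here. The counts of both genes were whole in all 3 libraries, unlike those of Hira and Gm28539.

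Chaf1a and Chaf1b encode the p150 and p60 subunits of CAF-1, the first of which binds the sliding clamp PCNA. Chaf1a (ENSMUSG00000002835) lies on chromosome 17, 56040439 to 56072289, and Chaf1b (ENSMUSG00000022945) on chromosome 16, 93883901 to 93906115. Chaf1a had 4.53, 4.19 and 3.36 TPM in replicates 1, 2 and 3, and Chaf1b had 12, 10.26 and 8 TPM. Every Chaf1b value lay above every Chaf1a value. The log2 ratio of Chaf1b to Chaf1a was 1.41, 1.29 and 1.25, a mean of 1.32 ± 0.08 (SD, n = 3) or 2.49-fold, the tightest of the 5 ratios. Without length the counts ran the other way, with 708, 458 and 364 for Chaf1a and 543, 321 and 257 for Chaf1b.

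Chaf1a also overlaps a gene on the opposite strand. Of the 8988 distinct 50-base words of Chaf1a, 4464 occur in Ubxn6 transcripts in antisense, or 49.7%. The longest Chaf1a transcript in the annotation, of 7698 nt, is a retained-intron form, and the longest coding one has 5535 nt. Ubxn6 had 238, 126 and 137 counts, fewer than Chaf1a in each library, and the counts of both genes were whole in all 3. The remaining CAF-1 subunit, the histone-binding protein RBBP4, is shared with other chromatin complexes, and Rbbp4 had 56.9 ± 16.4 TPM (SD, n = 3).

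Nasp (ENSMUSG00000028693), on chromosome 4, 116601052 to 116627941, encodes the escort that protects the soluble pool of H3 and H4. It had 59.9, 56.12 and 48.88 TPM in replicates 1, 2 and 3, above every value of the other 9 genes. Nasp exceeded Atrx, the next in order, by 1.52 ± 0.19 in log2 TPM (SD, n = 3), higher in 3 of 3 libraries. On the TMM-scaled CPM scale it was 236, 278 and 304, with replicate 1 lowest, the opposite order to its TPM; the edgeR adjusted p for variation was 1.

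Ordered by mean TPM the genes ran Nasp, Atrx, Hira, Daxx, Chaf1b, Asf1a, Asf1b, Cabin1, Chaf1a and Ubn1. Of the 9 neighbouring pairs in that order, 3 differed by more than the SD of their log2 difference and in the same direction in all 3 libraries: Nasp over Atrx, Asf1b over Cabin1 by 0.8 ± 0.69 and Chaf1a over Ubn1 by 0.5 ± 0.18 (SD, n = 3). The run from Atrx to Asf1b was not separated pair by pair, with Atrx over Hira by 0.56 ± 0.57 (SD, n = 3). Cabin1 and Chaf1a were not separated either.

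TPM depends on the transcripts to which reads were assigned. The length deposited with each gene is read here as a mean over its transcripts weighted by abundance. That reading comes from the column names and is not stated in the sources used here, and the bounds below rest on it. The transcripts listed for all 10 genes were those of GENCODE vM21. For 4 genes, Asf1b, Chaf1a, Chaf1b and Nasp, the mean deposited length was 74.7% to 106.2% of the longest coding transcript. For the other 6, Atrx, Daxx, Hira, Ubn1, Cabin1 and Asf1a, it was 34.2% to 64.8%. Over 9672 expressed protein-coding genes the median was 80.1%, with quartiles at 61.4% and 95.1%. Under 70% lay 35.9% of them and 6 of the 10 chaperone genes.

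The 4 genes with the higher values are those of the replication-coupled route and the general escort. The other 6 are the H3.3 depositors and Asf1a. That division was noticed after the values were seen, and it depends on setting the length against the longest coding transcript. Hira was the shortest relative to its annotation, at 34.2% ± 1.8 (SD, n = 3), lower than in all but 3.9% of expressed protein-coding genes. This length takes the division of reads between Hira and Gm28539 as deposited, and so does the bound that follows. In replicate 1 Gm28539 took 22.6% of their summed counts. The weighted mean in replicate 1 was 1419.53 nt, with Hira transcripts of 647 to 4218 nt. As deposited, that allows at most 21.6% of Hira transcripts to be the full-length form. For Daxx the same bound was 30.6%, 35.5% and 37.4% in replicates 1, 2 and 3. For Cabin1 the deposited length itself differed, at 3559.85, 4459.04 and 4831.57 nt, with bounds of 45.5%, 58.2% and 63.5%. The longest annotated transcript is not a coding one for Chaf1a, Chaf1b and Nasp, so their bounds are not for a coding form. Those of Chaf1b and Nasp were 56.9% to 58.2% and 50.8% to 51.2%. Both ranges lay within that of Cabin1, while Ubn1 had 57.4% to 63.8% and Atrx 44% to 51.2%. Asf1b, at 98.9% or more, and Chaf1a, at 73.4% or more for its retained-intron form of 7698 nt, stayed above these. The Chaf1a length, 106.2% of its longest coding transcript, exceeds every coding form. On this reading, part of its weight therefore lay on the retained-intron form. Cabin1 has 4 retained-intron transcripts in the annotation and Atrx 8. Whether short annotated transcripts were present, or reads of unspliced or partial RNA were assigned to them, was not tested.

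**Figure D3:**
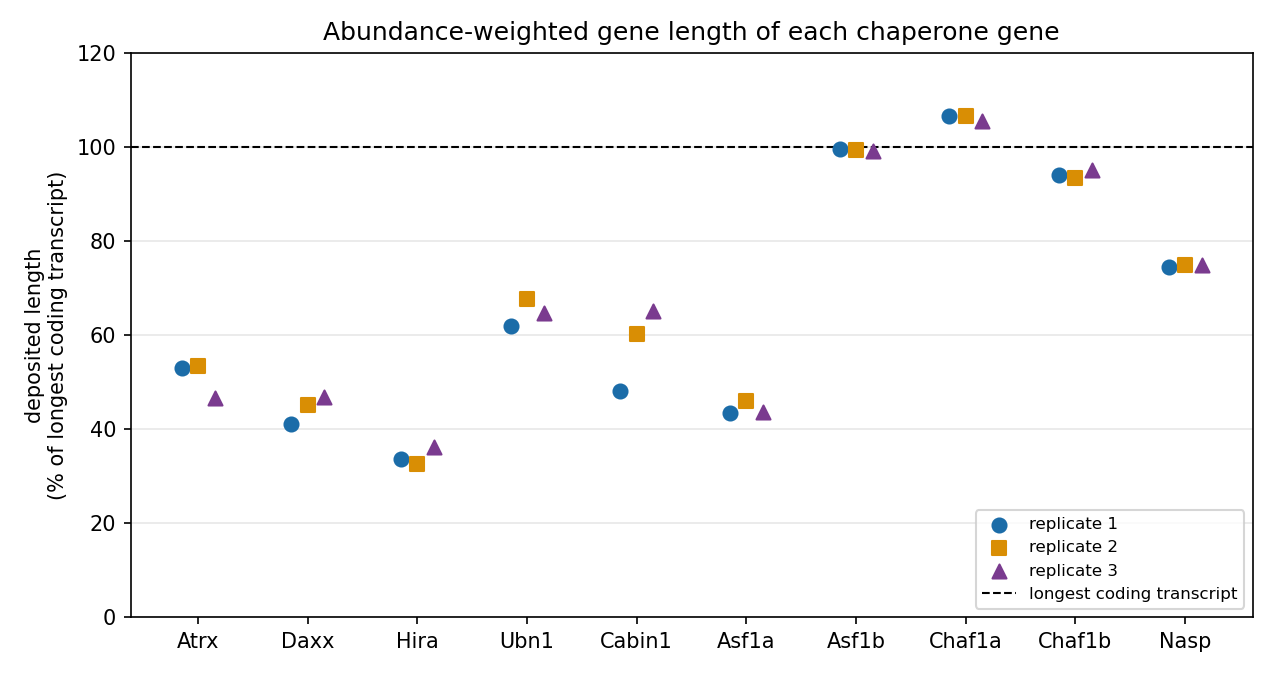
Abundance-weighted length deposited for each chaperone gene, as a percent of its longest coding transcript in GENCODE vM21, in 3 replicates. Asf1b, Chaf1a, Chaf1b and Nasp lie at 74.5% or more in every replicate, and the other 6 genes at 67.7% or less.

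The comparison between routes depended on that length and on the summary used. The replication-coupled genes with the general escort (Chaf1a, Chaf1b, Asf1b and Nasp) and the replication-independent genes (Atrx, Daxx, Hira, Ubn1 and Cabin1) were compared by their medians of log2(TPM + 1). The difference was -0.38, -0.05 and -0.01, a mean of -0.14 ± 0.20 (SD, n = 3), within its spread. With means over the genes in place of medians, on the same TPM, it was 0.46 ± 0.25 (SD, n = 3). With CPM divided by the length of the longest coding transcript, a scale chosen after seeing the data, it was 0.89, 1.08 and 1.39. The mean was 1.12 ± 0.25 (SD, n = 3), in favour of the replication-coupled genes in 3 of 3 libraries. Against TPM, this scale lowers most the genes whose deposited length is a small share of that transcript. Every replication-independent gene had a smaller share than the replication-coupled ones. The move therefore comes largely from the lengths, and 3 of 3 libraries is not separate support for it. The Asf1b to Asf1a ratio moved likewise, to 1.26 ± 0.24 (SD, n = 3), with Asf1b 2.4-fold higher.

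Ratios within the depositing complexes kept their direction on that scale. Chaf1b stayed above Chaf1a by 1.13 ± 0.07, Atrx above Daxx by 1.12 ± 0.05, and Hira above Ubn1 and Cabin1, at log2 ratios of -1.2 ± 0.22 and -0.52 ± 0.17 (SD, n = 3). Nasp remained highest at 114 ± 8.98 and Ubn1 lowest at 5.15 ± 0.666 CPM per kb (SD, n = 3). Asf1b moved from place 7 to place 4 of the 10 and Hira from 3 to 7.

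**Figure D4:**
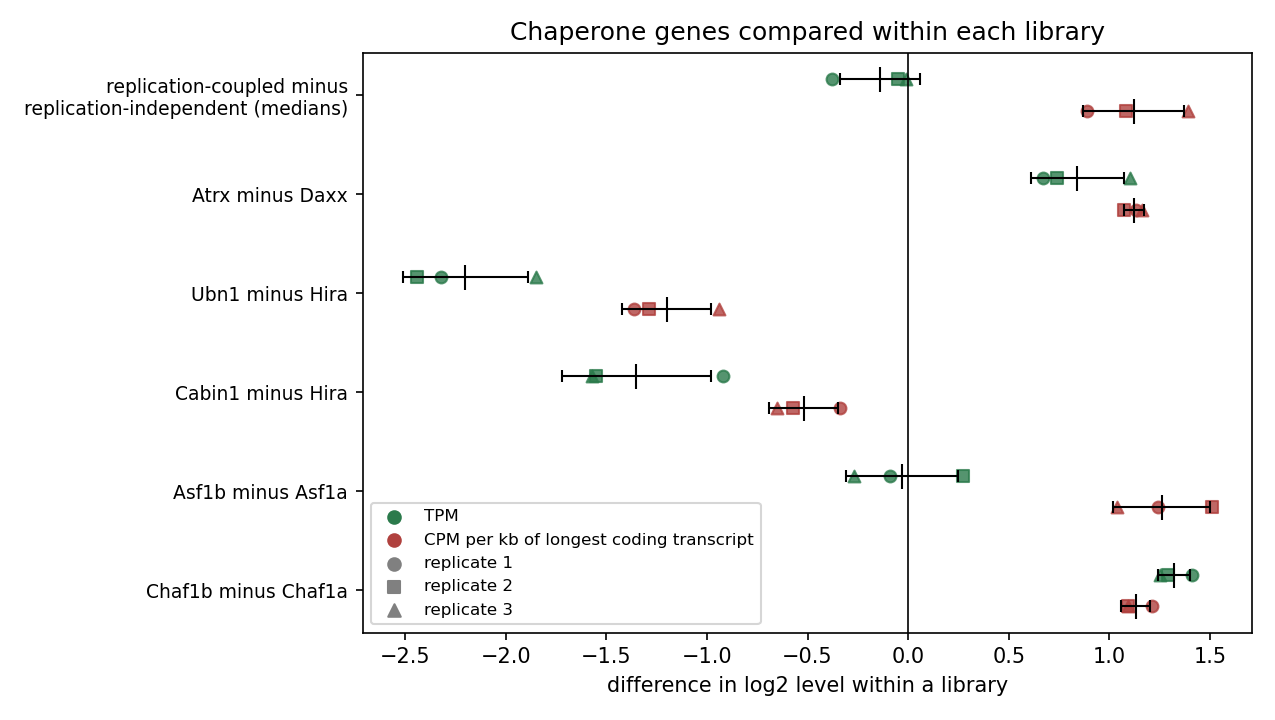
Differences in log2 level within each library, for the 2 routes (difference of medians) and 5 pairs of genes, by TPM and by CPM per kb of the longest coding transcript; points are the 3 replicates, and the vertical tick and bar are their mean and SD. The Chaf1b to Chaf1a, Atrx to Daxx and HIRA-complex differences keep their side of 0 on both scales, and those between the routes and between Asf1b and Asf1a do not.

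The genes that supply, modify or share these histones were listed beside the chaperones. All 14 H3-H4 handling partners reached a mean of 1 TPM, from Spty2d1, an H3-H4 chaperone gene, at 1.31 ± 0.5 to Hat1, which encodes the acetyltransferase of newly made H4, at 66.2 ± 6.99 TPM (SD, n = 3). Their median was 11.5 TPM, and the median of the 10 depositing chaperones was 9.62 TPM. The 9 chaperones of H2A-H2B and other kinds had a median of 39.1 TPM and ran from Vps72, of the H2A.Z exchange complexes, at 7.74 ± 1.29 to Npm1, which encodes nucleophosmin, at 1150 ± 77.9 TPM (SD, n = 3). The cargo of the H3.3 route was abundant, with H3f3a at 128 ± 13 and H3f3b at 80 ± 8.12 TPM (SD, n = 3).

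All 16 replication fork and S phase genes also reached 1 TPM, with a median of 22.9 TPM. They ran from Cdc6, an origin licensing factor, at 7.55 ± 1.17 to Pcna at 91 ± 5.15 TPM (SD, n = 3), and Pcna lay above both CAF-1 genes in every library. In edgeR's goodness-of-fit test 0 of the 14 partners, 0 of the 9 other chaperones, 0 of the 2 H3.3 genes and 0 of the 16 replication genes were called. At an unadjusted p under 0.05 the 4 lists gave 1, 0, 0 and 0 genes. The 1 was Ubn2, with an adjusted p of 0.625 and counts of 2257, 1182 and 568 in replicates 1, 2 and 3.

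**Figure D5:**
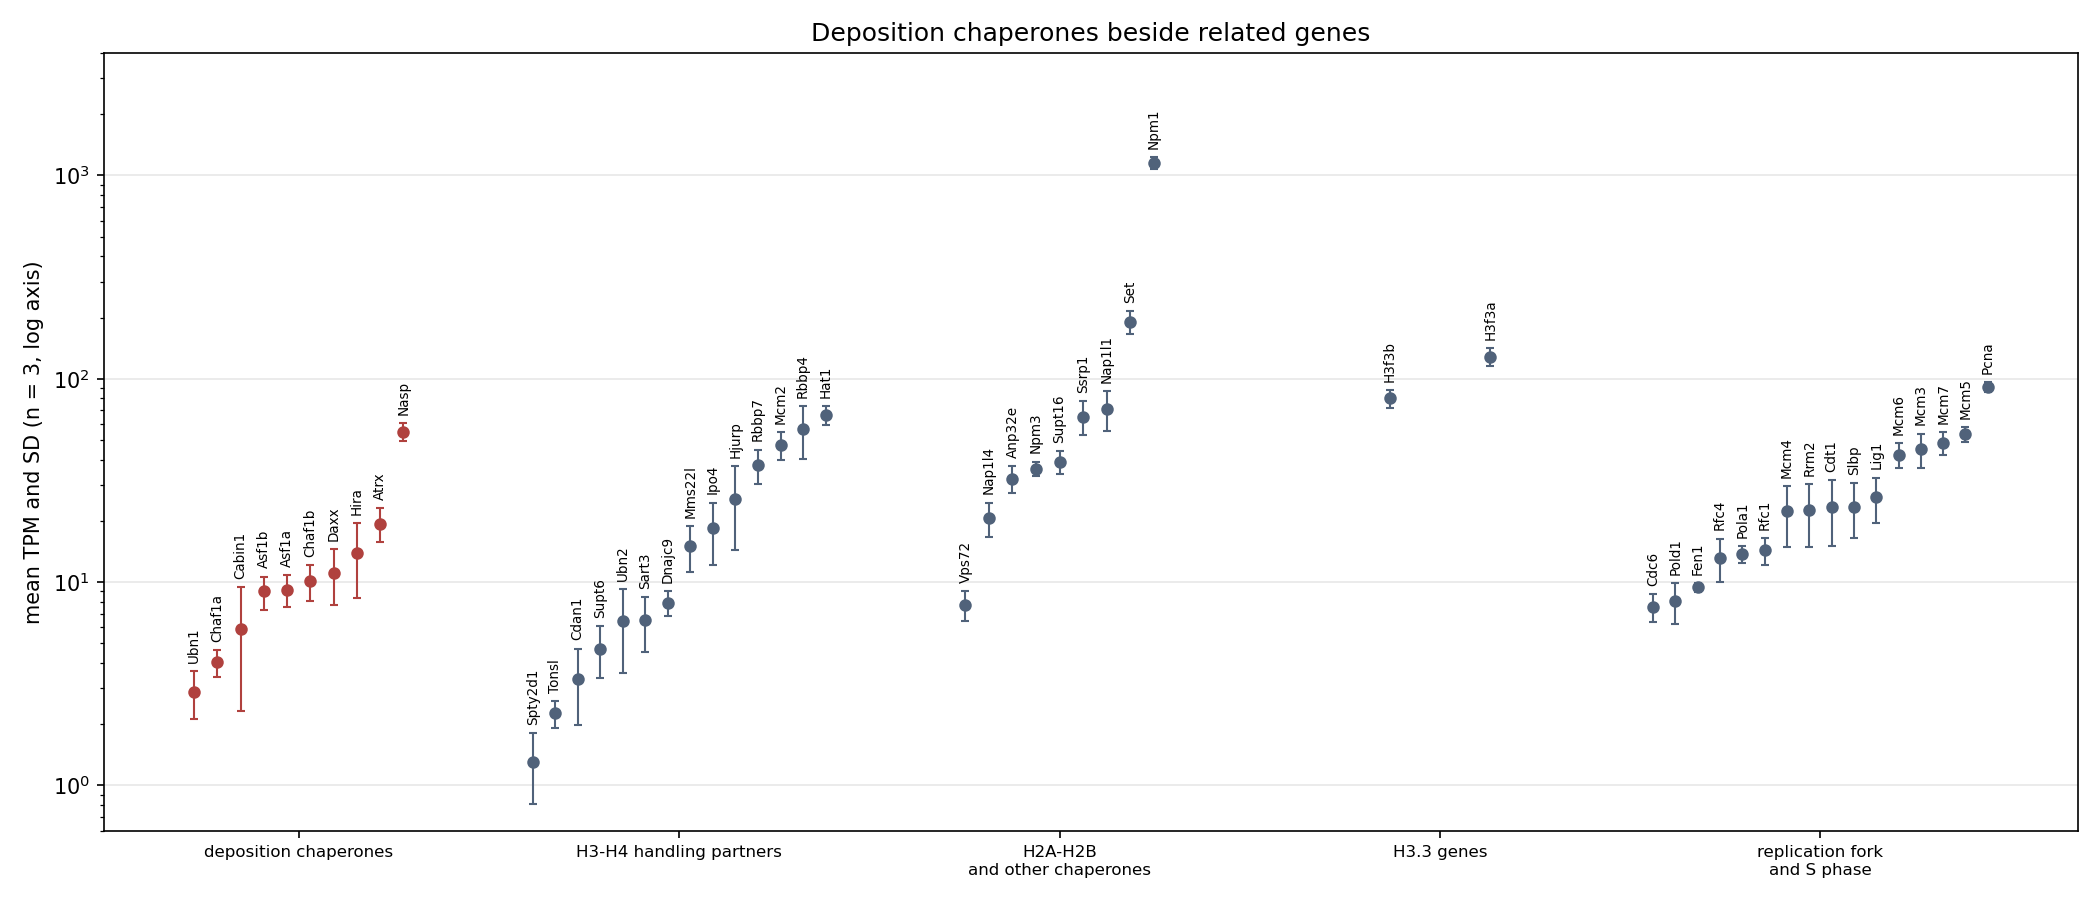
Mean TPM (log axis) and SD over 3 replicates of the 10 deposition chaperones (red) and of 4 lists of related genes (grey), each list ordered by level. The chaperones run from Ubn1 at 2.89 to Nasp at 55.0 TPM, under both H3.3 genes, H3f3b at 80 and H3f3a at 128 TPM.

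The related gene nearest to each chaperone was found by the Euclidean distance of log2(TPM + 1) over the 3 libraries, among 41 genes. These were the genes of the 4 lists above, so every nearest gene had to be a chromatin or replication gene. A near gene need not share the replicate order: Fen1 was highest in replicate 3 at 9.87 TPM, and Asf1a in replicate 1 at 11 TPM. Nap1l4, a nucleosome assembly protein gene, was nearest to Atrx at a distance of 0.18, with 20.6 ± 3.99 TPM (SD, n = 3). Mcm5, a subunit of the replicative helicase, was nearest to Nasp at 0.21, with 53.3 ± 4.68 TPM (SD, n = 3). Pold1, the catalytic subunit gene of a replicative polymerase, was nearest to Asf1b at 0.3. Ubn2 was nearest to Cabin1 at 0.43. The other 6 distances ran from 0.33 for Asf1a with Fen1 to 0.64 for Daxx with Rfc4.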

How the data were processed

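Per the labels' protocols, ribosomal RNA was removed from total RNA before directional library preparation. The submitters' processing notes name STAR, RSEM and build mm10 for the series; versions, annotation and strand setting are not given in the sources used here. Per the file headers, the authors deposited an estimated count (expected count) per gene, not normalized, with TPM, FPKM, length and effective length. FPKM as deposited served only as an alternative.

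Titles gave the group and replicate number. Symbols, coordinates and transcripts came from GENCODE vM21 (GRCm38), and 55227 of 55487 gene IDs matched. Counts were rounded for edgeR 4.0.16 in R 4.3.3, with TMM, filterByExpr and an intercept-only design; the goodness-of-fit test compared each gene's deviance under the trended dispersion with chi-square, with Benjamini-Hochberg adjusted p-values over 12577 genes. That script was tested on simulated counts with 1 dispersion for all genes and no length trend. The size of change that the test could detect in these libraries is not reported here. Sequences were aligned with Biopython 1.88. Tables were handled in pandas 2.3.3 and numpy 2.4.6 under Python 3.11.15, with scipy 1.17.1 for intervals, and plots drawn in matplotlib 3.10.9. DESeq2 1.42.0 gave alternative size factors. An expressed gene has a mean of at least 1 TPM. No replicate pair was a repeat deposit: chi-square over degrees of freedom was 6.64 to 29.2 between their counts.

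Members and lists were chosen with earlier results of these data known. Named genes are the members, their direct partners and cargo, overlapping genes, the nearest related genes, and the highest and lowest gene of each other list; the remaining names were chosen after their values were seen.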

Additional observations from a re-analysis of the deposited data

How the results depend on the processing

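For 9 results, 70 recomputed values were obtained, 58 with planned settings and 12 with settings chosen after seeing the data. Of these, 51 left a value within 1 SD or a count within 1.5 times of the original, 17 moved it and 2 reversed it. The number of varying chaperone genes was 0 in every one, and all 10 were detected except at a limit of 5 TPM, where 8 were. The median level of 3.41 became 4.82 with FPKM, 4.77 with TPM rescaled without genes of effective length under 100 nt and 3.8 per kb of the longest coding transcript. The difference between routes, -0.14, became 0.46 with means over genes, 0.2 with CPM and 1.12 per kb of the longest coding transcript. With CPM, not divided by length, the ratios were 3.12 for Atrx to Daxx, -0.57 for Ubn1 to Hira, 0.94 for Asf1b to Asf1a and, both reversed, 0.31 for Cabin1 to Hira and -0.47 for Chaf1b to Chaf1a; longer transcripts give more reads by construction. Per kb of the longest coding transcript they were 1.12 for Atrx to Daxx, -1.2 for Ubn1 to Hira, -0.52 for Cabin1 to Hira, 1.26 for Asf1b to Asf1a and 1.13 for Chaf1b to Chaf1a. With a pseudocount of 1 the ratio of Ubn1 to Hira was -1.87 and that of Chaf1b to Chaf1a 1.13, and per deposited length the latter was 1.23. With 1 of 3 replicates left out a mean cannot move beyond its own SD, so these values say nothing about stability: the median level ran from 3.29 to 3.54, the difference between routes from -0.21 to -0.03, and the ratio of Asf1b to Asf1a from -0.18 to 0.09. No adjusted p of a single member passed 0.05 under any alternative. Depth limits the rarer genes: 129 counts carry an interval of 108 to 153. No paired analysis was possible because only 1 group was analysed.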
